A study of Mus musculus with 3 samples.

Results

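The genes described here encode the m6A writer complex (Mettl3, Mettl14, Wtap, Virma, Zc3h13, Rbm15, Rbm15b and Cbll1) and the m6A erasers (Alkbh5 and Fto). They were chosen by name, and a listed m6A site was counted for a gene where it lay inside the annotated span of that gene on the same strand of GRCm38. By this rule 56 of the 19301 listed sites belonged to the 10 genes. The sites come from miCLIP2 of RAW264.7, an established mouse macrophage cell line, in which poly(A)+ RNA is crosslinked to a rabbit antibody against m6A and the positions of reverse transcription stops are read by sequencing. The 3 samples are biological replicates of untreated cells, and there was no second condition, genotype or depletion of a writer. The series text calls the line human, while the organism label gives mouse, and every listed site lay at an A of the mouse genome. The authors kept crosslink peaks found in at least 2 of the 3 replicates, scored those at A with the machine learning model m6Aboost, and deposited 1 pooled list with a score for each site. The score runs from 0.5, the lowest the list holds, to 1 and describes the certainty of the call rather than the share of molecules that carry m6A. The list gives no read counts and no values for single replicates, so the depth behind a site is unknown, no value per sample can be given, and no test over samples could be made.

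N6-methyladenosine, or m6A, is adenosine with a methyl group on the amino nitrogen of its base, and it affects how an mRNA is spliced, translated and degraded. The mark is written in the nucleus by a heterodimer in which METTL3 is the catalytic subunit and METTL14 helps to bind the RNA. WTAP anchors this pair to VIRMA, ZC3H13, the E3 ligase CBLL1 (HAKAI) and the RNA-binding proteins RBM15 or RBM15B, while ALKBH5 and FTO are demethylases that remove the mark. The writer prefers the motif DRACH, where D is A, G or T, R is A or G, H is A, C or T, and the central A is the one methylated.

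Of the 10 genes, 7 held a site, and the catalytic pair was not among them. Wtap had 7 sites, Virma 9, Zc3h13 10, Rbm15 15, Rbm15b 7, Alkbh5 6 and Fto 2, while Mettl3, Mettl14 and Cbll1 were listed with no site. Over all 21951 protein-coding genes, 5080 had a site in their span, or 23.1%. The writer complex thus had 48 sites in 5 of its 8 genes and the erasers 8 sites in both genes. A gene with no listed site is not shown to lack m6A, since expression and read depth decide whether a peak can be called and neither is in the list.

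The sequences around the highest-scoring site of each gene, and around 3 sites to which the text returns, show what the antibody signal was assigned to. Each is 21 nt long on the strand of the gene, written 5′ to 3′ as DNA, with the pentamer around the called A in capitals.
Wtap, CDS, chr17:12975315-12975335, minus strand: cccaaaatGAACTgagtgcct
Virma, CDS, chr4:11526782-11526802, plus strand: tctgcttaAAACTatgctgac
Zc3h13, CDS, chr14:75331954-75331974, plus strand: agaaggagAGACTtggacaga
Rbm15, CDS, chr3:107332412-107332432, minus strand: gcctttgtGAACTtccggagg
Rbm15b, CDS, chr9:106884839-106884859, minus strand: aaagctaaAGACTctgtcaga
Alkbh5, CDS, chr11:60538912-60538932, plus strand: gagatcccGGACTgggtgcat
Fto, CDS, chr8:91409425-91409445, plus strand: tgaacaccAGACTcttcacgg
Rbm15b, CDS, site aligned with the Rbm15 site above, chr9:106886410-106886430, minus strand: gcctacgtGAACTtccggcac
Rbm15, CDS, the only member site outside DRACH, chr3:107331706-107331726, minus strand: ccactaccCGACTttgggtgg
Alkbh5, 3′ UTR, nearest site downstream of a stop codon, chr11:60554425-60554445, plus strand: ccctcttgGGACTctggctaa

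DRACH motifs held 55 of the 56 sites, or 98.2% (95% Wilson interval 90.6 to 99.7%), against 92.0% of the 19124 sites in other protein-coding genes. All such intervals cover counting error only, and sites that neighbour each other on 1 transcript are not independent. The most frequent pentamer among the member sites was AGACT with 13 sites, or 23.2% (14.1 to 35.8%), followed by GAACT with 9, or 16.1% (8.69 to 27.8%). In other genes AGACT made up 12.2% of sites, below the interval of the members, and GAACT 13.1%, inside it. GGACT, which led in other genes with 19.4% of sites, had 7 member sites, or 12.5% (6.19 to 23.6%). The Rbm15 site outside DRACH differed from the motif in its first base, as its pentamer CGACT shows, and had a score of 0.667.

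The sites lay almost wholly in coding sequence. On the transcript with the longest CDS of each gene, 51 of the 56 sites were in the CDS, or 91.1% (80.7 to 96.1%), and 2 in the 3′ UTR, or 3.57% (0.985 to 12.1%). In other protein-coding genes the CDS held 51.1% of sites and the 3′ UTR 43.5%. The remaining member sites were 1 in the 5′ UTR of Alkbh5 and 2 in a Wtap intron. The model that gave the scores took the transcript region as an input along with the sequence and the signal, so the regions of the listed sites are not independent of how the sites were called.

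Set against the DRACH adenosines that each region offers, the CDS of the 10 transcripts had 50 of 573 listed, or 8.73% (6.68 to 11.3%), and the 3′ UTR 2 of 317, or 0.631% (0.173 to 2.27%). Across other protein-coding genes with a site, 4.53% of DRACH adenosines in the CDS were listed, 4.99% of those in the 3′ UTR and 2.35% of those in the 5′ UTR. The member 5′ UTRs had 1 of 33 listed, or 3.03% (0.537 to 15.3%). The 3′ UTR interval of the members lay below the 3′ UTR share of other genes, and their CDS interval above the CDS share. Because the 10 genes include 3 without any site, the same shares over the 7 genes with a site were 10.8% in the CDS (8.29 to 14.0%) and 0.833% in the 3′ UTR (0.229 to 2.99%). By exon class, the CDS interval of the 10 genes lay above other genes only in first exons (21.1% against 6.04%), mostly through Rbm15. Coding parts of last exons had 9.09% listed (4.23 to 18.4%) against 12.4%, and single-exon transcripts 13.2% (6.55 to 24.8%) against 18.7%. Gene by gene, 5 of the 6 members with 5 or more sites had none in the 3′ UTR, the exception being Alkbh5. For Wtap this holds on the chosen transcript only, as its 2 intronic sites lie in the 3′ UTR of the transcripts Wtap-204 and Wtap-205. Among 1526 other protein-coding genes with 5 or more sites, 26.4% had none there. No test of these differences was made, as the genes were picked by name and the list has no replicates.

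**Figure D1:**
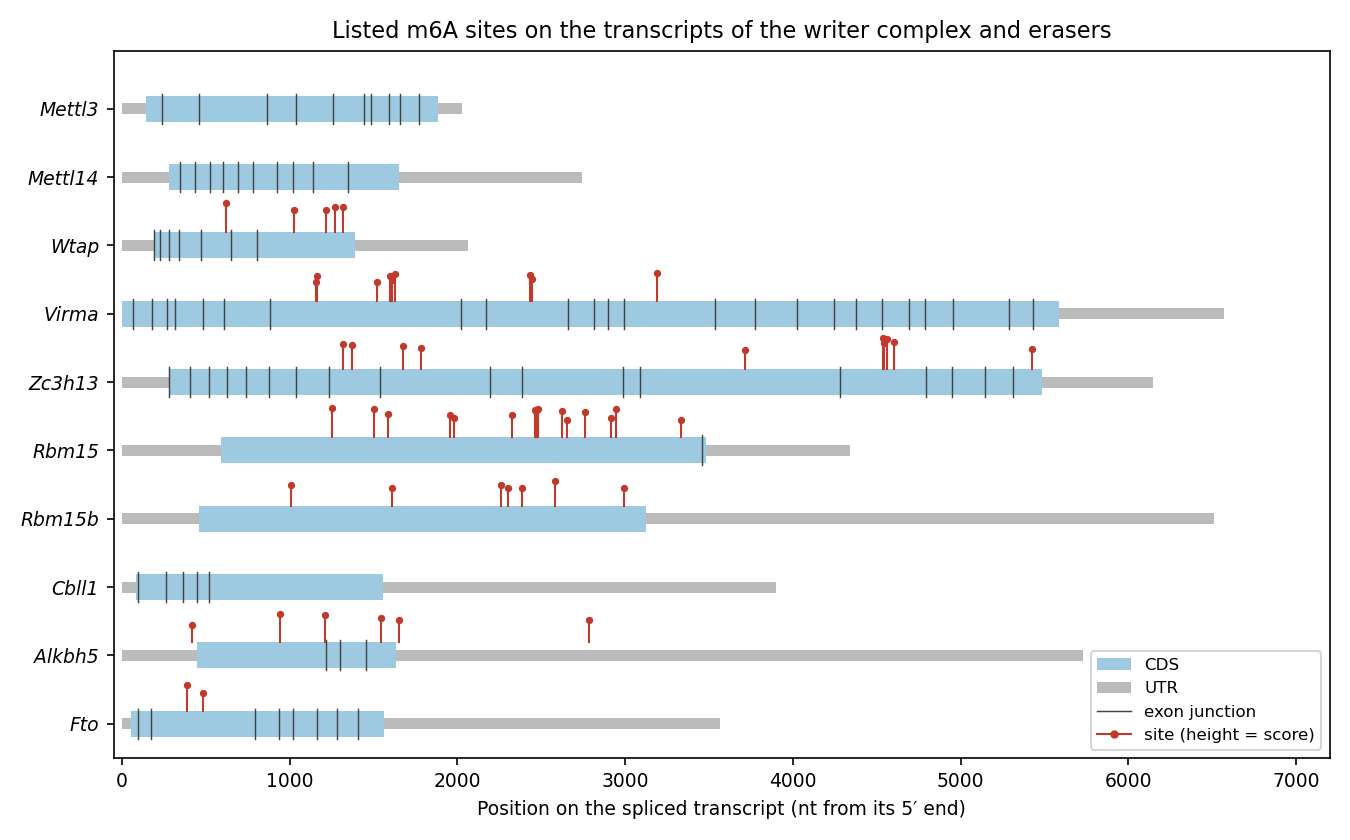
Listed sites on the spliced transcript of each of the 10 genes, with position in nt from the 5′ end on the horizontal axis, CDS in blue, UTRs in grey and exon junctions as black lines. Each red pin is a site and its height is the prediction score. The pins stand over the CDS in every gene but Alkbh5, which has 1 in the 5′ UTR and 2 in the 3′ UTR, and the 2 Wtap sites in an intron of the transcript are not drawn.

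Within the CDS, long and short internal exons differed in how many DRACH adenosines were listed. Internal exons of 400 nt or more had 18 of 151 listed, or 11.9% (7.67 to 18.1%), and shorter internal exons 3 of 227, or 1.32% (0.450 to 3.81%). The intervals do not overlap, and other protein-coding genes with a site showed a like contrast, with 10.4% and 0.943% in the CDS of such exons. Of the 9 long internal exons in the 10 transcripts 7 held a site, and of the 68 short ones 2 did. Over all exons of the 10 transcripts, UTRs included, DRACH adenosines within 100 nt of an exon junction had 4 of 308 listed (0.506 to 3.29%), and those farther away 49 of 615, or 7.97% (6.08 to 10.4%). Over the 7 genes with a site these were 1.76% (0.687 to 4.44%) and 9.72% (7.43 to 12.6%), and other genes with a site had 1.39%, inside the first interval, and 6.87%, below the second. First exons stood out by their coding part, with 16 of 76 DRACH adenosines listed, or 21.1% (13.4 to 31.5%), against 6.04% in other genes. This value is that of the single long coding exon of Rbm15, which supplied 14 of the 16 sites, and of Alkbh5 with 2.

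**Figure D2:**
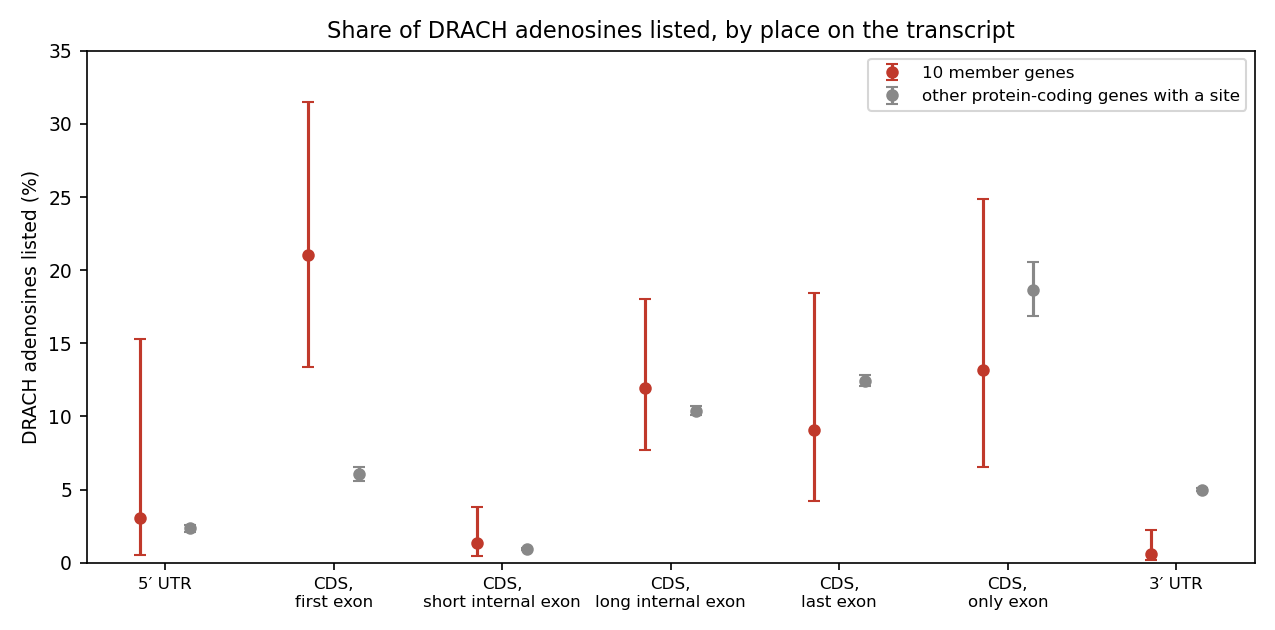
Percent of DRACH adenosines listed as m6A sites, by region and exon class of the transcript, for the 10 genes (red) and for the other protein-coding genes with a site (grey), with 95% Wilson intervals as bars. In both sets the short internal exons are lowest among coding exons, at 1.32% and 0.943%, and the 3′ UTR shares are 0.631% and 4.99%.

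The surroundings of the stop codon, where m6A gathers in many mRNAs, held few of the member sites. Counted along the mature transcript, 8 of the 56 sites, or 14.3% (7.42 to 25.7%), lay no more than 200 nt from its stop codon, against 31.3% in other protein-coding genes. Of these 8 sites 7 were upstream of the stop codon and 1, in Alkbh5, downstream. The same windows held 92 DRACH adenosines, so 8.70% of them were listed (4.47 to 16.2%), and the share in other genes with a site was 12.7%, inside that interval. Over the 7 genes with a site 8 of 65 were listed, or 12.3% (6.37 to 22.5%). Last exons held 8 member sites, or 14.3%, and 63.4% of the sites in other genes. With the only exon of single-exon genes such as Rbm15b counted as a last exon, the shares were 26.8% and 66.4%. Per DRACH adenosine, last exons of the 7 genes with a site had 8 of 205 listed, or 3.90% (1.99 to 7.51%), an interval that includes the 6.25% of other genes with a site.

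Scores of the member sites had a median of 0.702 over 56 sites, with quartiles of 0.597 and 0.773, and the sites of other protein-coding genes a median of 0.734. Exactly 28 of the 56 sites scored at least 0.7, and 1, in Zc3h13, at least 0.9. Wtap had the highest median of the 7 genes, 0.760, and Rbm15b the lowest, 0.522. The ranges of all 7 genes overlapped, and neighbours in the order of medians (Rbm15 0.737, Virma 0.718, Zc3h13 0.709, Alkbh5 0.683 and Fto 0.638) lay well inside each other's range. The Rbm15b median, next in the order, lay below the lowest Fto score of 0.528.

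**Figure D3:**
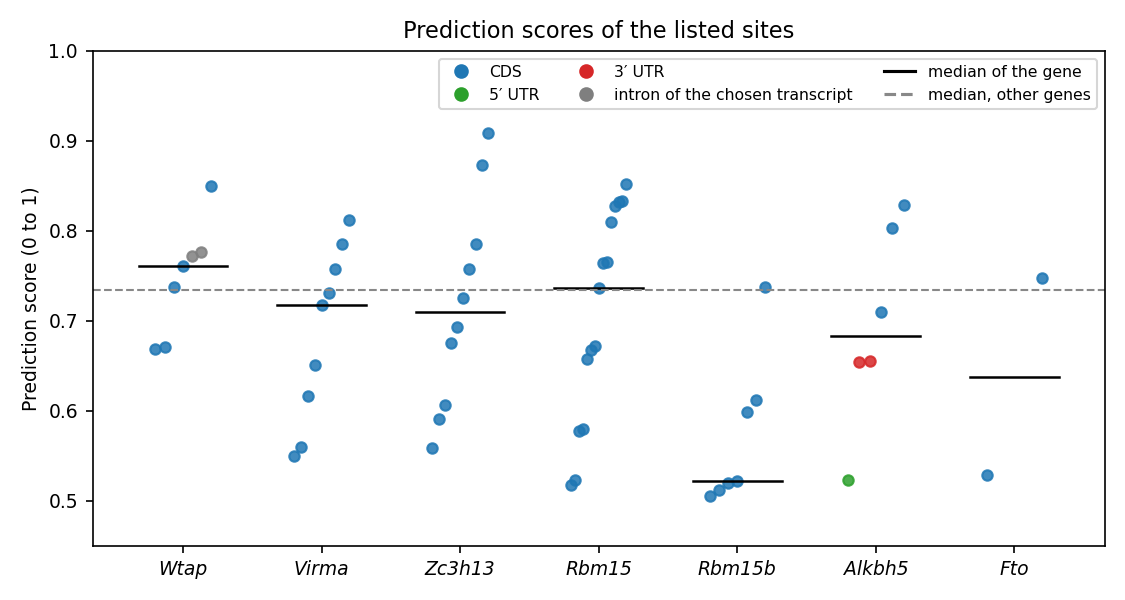
Prediction score of every listed site in the 7 genes with a site (points, coloured by region), with the median of each gene (black line) and the median over the other protein-coding genes (dashed line, 0.734). The sites of Rbm15b crowd near the lower end of the list, with a median of 0.522, and the Wtap sites lie between 0.669 and 0.849.

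Mettl3 encodes the methyltransferase itself and Mettl14 its partner, and neither had a listed site. The Mettl3 transcript of 2025 nt offered 38 exonic DRACH adenosines (0 listed, Wilson interval up to 9.18%) and that of Mettl14, 2741 nt long, offered 70 (up to 5.20%). The 4.62% of exonic DRACH adenosines listed over other protein-coding genes comes from genes with at least 1 site and is no reference for a gene without any. The longest internal exon of Mettl3 has 405 nt and 9 DRACH adenosines, none of them listed, and Mettl14 has no internal exon of 400 nt or more. The last exon of Mettl14 is 1394 nt long with 33 DRACH adenosines, none of them listed. None of the sequence windows of 31 nt around DRACH adenosines in Mettl3 (33 windows) or Mettl14 (61 windows) occurred a second time in the genome.

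Wtap encodes the adaptor that joins the catalytic pair to the rest of the complex, and its sites fell into 3 places. A single site lay in exon 6, which is 179 nt long, at position 12975325 of chromosome 17 with a score of 0.849, the highest of the gene and only 29 nt from an exon junction. The last exon held 4 sites, all in the CDS, at 361, 170, 119 and 66 nt upstream of the stop codon and with scores from 0.669 to 0.760. The other two, at 12974811 and 12974777 with scores of 0.771 and 0.777, were intronic on the chosen transcript. They lay in the last exon of 2 isoforms with a shorter CDS of 453 nt, Wtap-204 and Wtap-205, in which exon 6 runs on past the splice site. On these isoforms the pair was in the 3′ UTR, 483 and 517 nt downstream of an earlier stop codon. By annotation, sites thus lay in the last exons of the forms of Wtap with the long and with the short CDS. The list cannot tell the short forms from a long form that kept the intron.

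Sequences of Wtap recur in the genome. Of its 7 listed sites, 4 had a 31-nt window with an exact copy elsewhere, among them the site with the score of 0.849, which is repeated in the processed pseudogenes Gm14292 and Gm9068. Both sites placed on the isoforms with the short CDS, at 12974811 and 12974777, also had such a copy. Unlisted DRACH adenosines of Wtap had such a copy in 25 of 39 windows. The authors kept uniquely mapping reads only, and none of the copied positions was itself listed. Reads that cover no more than such a window cannot be told apart from reads of the copy, so the Wtap counts are uncertain in that respect.

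Virma, the large scaffold of the complex, had all its 9 sites in long internal exons. Exon 8, 1141 nt long, held 6, exon 10 (489 nt) held 2 and exon 14 (545 nt) held 1, and these are the only internal exons of 400 nt or more among its 25 exons. The last exon, at 1140 nt nearly as long as exon 8, offered 28 DRACH adenosines and had none listed, against 6 of 33 in exon 8. No Virma site lay closer than 2394 nt to the stop codon. Scores ran from 0.550 to 0.812, and the site with the highest score was the one in exon 14.

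Zc3h13, a zinc finger protein that keeps the complex in the nucleus, had 10 sites spread over 5 exons. Exons 9 (308 nt) and 10 (651 nt) held 2 each, exon 14 (1191 nt) and the last exon, 19, held 1 each, and exon 15 (513 nt) held 4. The site nearest the stop codon was 54 nt upstream of it. The 4 sites of exon 15 were spaced by 6, 16 and 43 nt and included the highest score of all members, 0.908, with the others at 0.757, 0.873 and 0.786. In GENCODE M21, neither Zc3h13 nor Rbm15b has a transcript that passes the study's support filter as applied here, where a transcript without a support level fails. The transcripts chosen for Wtap and Virma do not pass it either, though others of those genes do.

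Rbm15 and Rbm15b encode paralogous RNA-binding proteins that bring the writer to its targets. Rbm15 led the members, with 15 sites, 14 of 87 exonic DRACH adenosines listed (16.1%) and 3.45 exonic sites per 1000 nt, where the median gene with a site had 0.880. Of the 5080 protein-coding genes with a site, 96, or 1.89%, had as many or more. All 15 lay in the CDS of exon 1, which is 3459 nt long, from 2228 to 146 nt upstream of the stop codon. Exon 2, with the last bases of the CDS and the 3′ UTR, offered 13 DRACH adenosines and had none listed. Scores of Rbm15 ran from 0.517 to 0.852.

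Rbm15b consists of a single exon of 6511 nt, and its 7 sites were again all in the CDS, where 7 of 53 DRACH adenosines were listed, or 13.2% (6.55 to 24.8%). The CDS of single-exon transcripts in other genes with a site had 18.7% listed, inside that interval. Its 3′ UTR of 3386 nt offered 70 DRACH adenosines and had none listed, with an upper Wilson bound of 5.20%. This bound is just above the 4.99% of all other genes with a site and below the 6.41% of their single-exon transcripts. Among 70 windows in this 3′ UTR, 19 had an exact copy of 31 nt elsewhere in the genome, and 1 of 53 did in the CDS. The scores were low, with 6 of the 7 between 0.505 and 0.612 and 1 at 0.737. All 7 sites also lie in the span of Manf on the same strand, in no exon of that gene.

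The coding sequences of the paralogues, 2889 and 2664 nt long, were 65.6% identical over 2564 aligned bases. This comparison was chosen after the sites had been seen. Of the 15 Rbm15 sites, 6 were aligned with a DRACH adenosine in Rbm15b and 2 with a listed site. The first of these is the most upstream site of both genes, with scores of 0.852 in Rbm15 and 0.599 in Rbm15b, and 16 of the 21 bases of the windows shown above are identical there. The other pairs position 107331053 of Rbm15 (0.764) with 106885128 of Rbm15b (0.522), with 12 identical bases among the 18 aligned ones. No 31-nt window around a listed site of either gene had an exact copy elsewhere in the genome.

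Cbll1, which encodes the E3 ligase HAKAI of the complex, was listed with no site among 84 exonic DRACH adenosines, with an upper Wilson bound of 4.37%. As for Mettl3, the 4.62% listed over other genes with at least 1 site is no reference for it. Most of the 84 DRACH adenosines, 71, lie in a last exon of 3379 nt, which carries the larger part of the CDS and a 3′ UTR of 2343 nt. Among the other members with a last exon of over 1000 nt, Virma, Mettl14 and Fto had no listed site in it, while Wtap had 4 and Alkbh5 had 3.

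Alkbh5, the nuclear demethylase, was the only member with sites in UTRs of the chosen transcript. Its first exon, 1218 nt long, held 1 site in the 5′ UTR with a score of 0.523 and 2 in the CDS with scores of 0.828 and 0.803. The last exon, 4275 nt long, held 1 site 86 nt upstream of the stop codon (0.710) and 2 in the 3′ UTR, 22 and 1154 nt downstream of the stop codon (0.656 and 0.654). The site with the score of 0.803 lay 10 nt from the end of exon 1, the shortest distance to a junction among the members. Of the 69 DRACH adenosines in its 3′ UTR 2 were listed, or 2.90% (0.799 to 9.97%).

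Fto, the other demethylase, spans more of the genome than any other member and had the fewest sites of those with any. Both lay in exon 3, 619 nt long and its only long internal exon, 95 nt apart, with scores of 0.747 and 0.528. Its last exon of 2158 nt offered 44 DRACH adenosines and had none listed. With 0.561 sites per 1000 nt Fto was the only member with a site that lay below the median gene, at 0.880.

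Clusters were searched only among the coding sites of Zc3h13, Virma and Rbm15, so their place in the CDS was set by the search. At least 3 sites with gaps of no more than 50 nt occurred in a long exon of each, shown here because the spacing is visible. Wtap, outside the search, had sites 51 and 53 nt apart in its last exon and 34 nt apart in the intron. Capitals mark the pentamers of the listed sites.
Zc3h13, exon 15, 4 sites, chr14:75331954-75332039, plus strand: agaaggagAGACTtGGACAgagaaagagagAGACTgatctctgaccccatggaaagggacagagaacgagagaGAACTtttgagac
Virma, exon 8, 3 sites, chr4:11513736-11513784, plus strand: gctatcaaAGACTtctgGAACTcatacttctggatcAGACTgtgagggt
Rbm15, exon 1, 3 sites, chr3:107331182-107331223, minus strand: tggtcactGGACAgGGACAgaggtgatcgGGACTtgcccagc
The closest sites were 6 nt apart in Zc3h13 and in Rbm15, so that their pentamers nearly touch, and 5 nt apart in a pair of Virma outside the cluster. Crosslink peaks this close can share reads, and how far their calls depend on each other was not tested.

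The m6A readers, which bind the mark, had 24 sites in 4 of 8 genes, the listed ones being Ythdf1 with 6, Ythdf2 with 12, Ythdf3 with 5 and Ythdc1 with 1. Ythdc2 and the Igf2bp genes were listed with none. As in the writer complex, the reader sites were coding, with 20 of 378 DRACH adenosines listed in the CDS, or 5.29% (3.45 to 8.03%), and 1 of 354 in the 3′ UTR, or 0.282% (0.0499 to 1.58%). Long internal coding exons accounted for 19 of these. Other RNA methyltransferases and cofactors had 8 sites in 2 of 6 genes, 4 each in Mettl16 and Pcif1, and the enzymes that supply or recycle S-adenosylmethionine had 1 site in 1 of 3 genes (Mat2b). Other reported m6A binders had 20 sites in 3 of 5 genes, 17 of them in Prrc2a. The other Alkbh family members had 5 sites in 2 of 7 genes, Alkbh1 with 2 and Alkbh2 with 3.

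**Figure D4:**
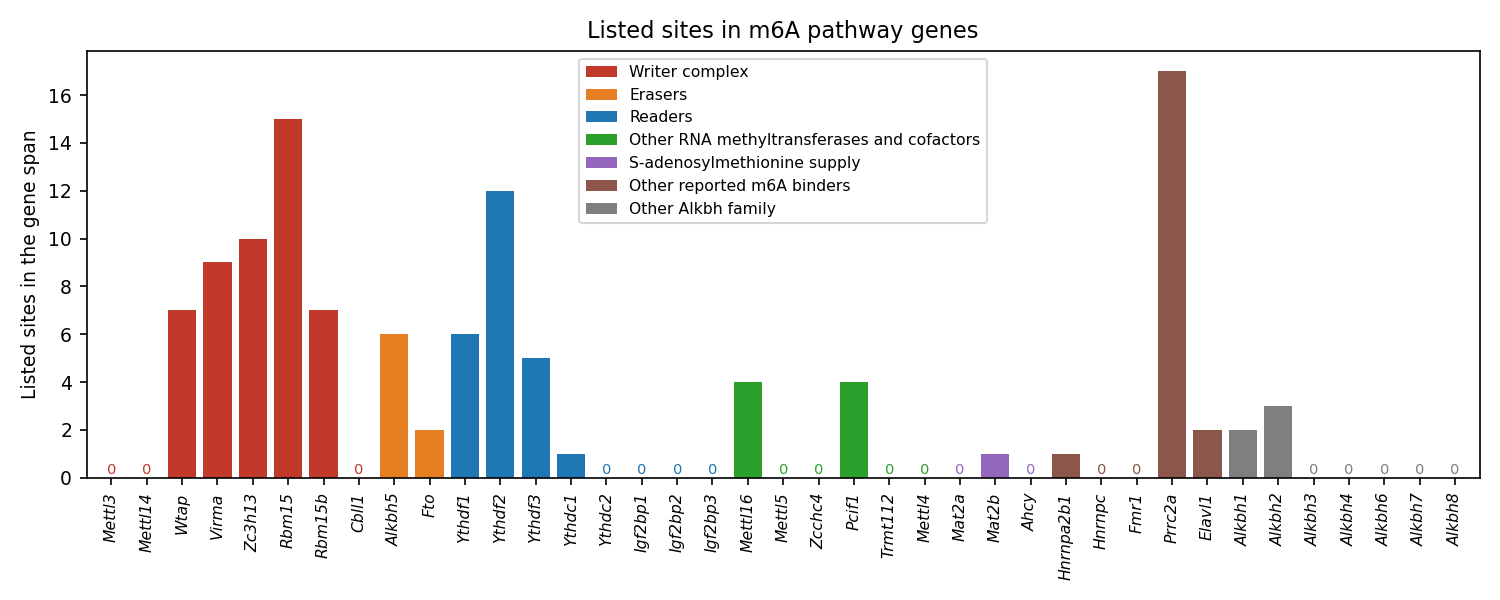
Number of listed sites in the span of each gene, for the writer complex, the erasers and 5 lists of other genes tied to m6A (bars coloured by list, 0 written where a gene had no site). Rbm15 with 15 sites is the highest of the writer complex and Prrc2a with 17 is the highest of all genes shown.

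Among marker genes, the macrophage markers Csf1r, Spi1, Cebpa, Fcgr1 and Lyz2 had 11, 6, 7, 6 and 2 sites, while Cd3e, Epcam, Col1a1, Pecam1 and Alb, markers of other lineages, were listed with none. With a site in 23.1% of all protein-coding genes, the absence of sites from 5 genes is no check of the cell type. A site needs an expressed transcript, but a list of sites does not measure expression, and Adgre1, Itgam, Cd68 and Mrc1 were macrophage markers without a site.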

How the data were processed

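Poly(A)+ RNA of untreated RAW264.7 cells was profiled by miCLIP2 in 3 biological replicates. Per the study's methods, only uniquely mapping reads were kept, duplicates were removed by molecular identifier, peaks were called with PureCLIP in each replicate and kept when present in at least 2, and peaks at A were scored by m6Aboost. The submitters' processing notes name STAR 2.7.3a, SAMtools 1.9, UMI-tools 1.0.0 and bedtools 2.27.1. The authors deposited 1 pooled list, whose only value is the prediction score per site; the start column is 0-based, as 19301 of 19301 sites then lay at A. No counts are given, so precision per site is unknown.

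Sites were placed on the transcript with the longest CDS (then the longest spliced form) of each gene in GENCODE M21, GRCm38, a release close to the M23 of the study. In shares of sites, pentamers and scores, a site in several protein-coding spans went to the gene whose chosen transcript held it in an exon. Ties went to the longest gene, and member sites stayed with the member. In counts by gene, among them genes with a site and genes without a 3′ UTR site, it counted for every gene spanning it. Such sites numbered 651. Shares carry 95% Wilson intervals. Copies of 31-nt windows were searched on both strands of the genome, leaving out DRACH windows that cross an exon junction. The Rbm15 and Rbm15b coding sequences were aligned globally (Biopython 1.88; match 2, mismatch -1, gap opening -6, gap extension -0.5). Placement was tested on simulated data, where 2000 of 2000 sites were recovered. Python 3.11.15, SciPy 1.17.1, pysam 0.24.0, numba 0.67.0 and matplotlib 3.10.9 were used.

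The members, the gene lists and the alternatives were chosen with earlier results of these data known. Named genes are the 10 members, the listed m6A pathway genes and the markers, and genes that overlap or copy a member sequence, named after they were seen; sequences are from at most the 4 highest-scoring sites of a member, any site outside DRACH, and the 3 clusters. Alternatives were score minimums of 0.7 and 0.9, sites within 5 nt collapsed, sites in no other gene, other transcripts, motifs and stop codon windows, and omission of Rbm15, of Rbm15b or of sites with a second copy. Protein sequences, other cell lines and tissues were not analysed here. Some marker genes are not reported here.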

Additional observations from a re-analysis of the deposited data

How the results depend on the processing

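The list is pooled over replicates and has no counts, so no replicate could be left out, and signal or depth limits could not be given. No paired analysis was possible because it holds 1 condition and no values per replicate. Of 58 values over the members recomputed under the alternatives, 42 moved by less than their interval (counts by less than 1.5 times) and 16 by more, 13 of the 58 being alternatives chosen after seeing the data. At a minimum score of 0.7, 28 sites were left, 100% of them at DRACH and 0% in the 3′ UTR, with 2.82% of exonic DRACH adenosines listed. At 0.9, 1 site in 1 gene was left, at DRACH and in the CDS (100% each), with 0% in the 3′ UTR, within 200 nt of the stop codon and in the last exon, and 0.108% of DRACH adenosines listed. With RRACH as the motif 87.5% of sites matched, and with only a C required after the called A 100% did. Without Rbm15, the member with most sites, 100% were at DRACH. A stop codon window of 100 nt held 7.14% of the sites. Of 14 further counts by gene at these score minimums, 13 moved by more than 1.5 times, all but that of Wtap at 0.7. At 0.7 there were 5 in Virma, 5 in Zc3h13, 8 in Rbm15, 1 in Rbm15b, 3 in Alkbh5 and 1 in Fto. The CDS share kept between 87.2% and 94.2% over the choices of transcript and the removal of Rbm15b or of sites with a second copy. Supported transcripts leave out Zc3h13 and Rbm15b, which have none under the filter as applied here. Counting only sites in no other gene left 49 sites in 6 genes, as Rbm15b dropped out.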

Other observations

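By codon position, the called A of the 51 coding member sites was the first base of the codon in 13 sites, or 25.5% (95% Wilson interval 15.5 to 38.9%), the second base in 26, or 51.0% (37.7 to 64.1%), and the third in 12, or 23.5% (14.0 to 36.8%). In other protein-coding genes the shares were 24.5%, 49.0% and 26.5%. Per DRACH adenosine of the member CDS the shares listed were 9.29% at the first position, 8.72% at the second and 8.15% at the third, with intervals that overlap.

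The order of the genes by the share of exonic DRACH adenosines listed was Rbm15 (16.1%), Wtap (10.0%), Zc3h13 (6.90%), Alkbh5 (6.45%), Virma (5.84%), Rbm15b (5.47%) and Fto (2 of 74). Neighbours in this order had overlapping 95% Wilson intervals. The share in other protein-coding genes with a site was 4.62%, below the interval of Rbm15 (9.83 to 25.2%) and inside those of the other genes named.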
